A study of Homo sapiens with 22 samples.

Results

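The proteasome genes described here are all rows of the count table whose name consists of PSM, a letter from A to G and a number, which gave 48 genes out of 60240. They encode the subunits of the proteasome, its activators and inhibitor, and the dedicated chaperones that assemble it. RNA was sequenced from 22 libraries of haematopoietic progenitor cells (HPCs) that had been differentiated from H1, a human embryonic stem cell line. The 10 DOX libraries came from cells given doxycycline to express ectopic MYC and were collected every 2 days from day 12 to day 20, and the 12 UT libraries came from cells without doxycycline, collected on day 10 and on those same days. Each of the 11 combinations of arm and day had 2 libraries of polyA-selected RNA with the same batch label. Nothing in the labels ties the replicates to separate cultures, so each p-value reflects only how far these libraries differ, possibly for technical reasons. All libraries come from 1 stem cell line, and none had doxycycline without ectopic MYC, so effects of the drug and of MYC cannot be told apart.

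The proteasome degrades proteins that carry a ubiquitin tag. Its barrel-shaped core has outer alpha rings and inner beta rings, and the subunits encoded by PSMB6, PSMB7 and PSMB5 cut the protein chain inside it. A regulatory cap, with a base that holds a ring of ATPases and a lid that removes ubiquitin, unfolds the tagged protein and threads it into the core. In blood and immune cells the catalytic subunits can be exchanged for PSMB9, PSMB10 and PSMB8 to form the immunoproteasome, which interferon gamma induces and which favours peptides for MHC class I molecules.

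Promoters of the interferon-inducible genes are shown here because 4 of the 5 share a short motif, and genes with it differed in direction. RefSeq windows of 300 bases (250 before to 50 after the annotated start, GRCh38.p14) were matched for 42 of the 48 genes, 51 windows in all. In the sequences, read 5′ to 3′ on the strand of the gene, capitals mark the pair of interferon regulatory factor (IRF) sites on either strand, spelled GAAA, any 2 bases and GAAA, and, where present, CCAAT and TGACNNNGC on either strand.
PSMB8 promoter, chr6:32843998-32844297 (minus strand): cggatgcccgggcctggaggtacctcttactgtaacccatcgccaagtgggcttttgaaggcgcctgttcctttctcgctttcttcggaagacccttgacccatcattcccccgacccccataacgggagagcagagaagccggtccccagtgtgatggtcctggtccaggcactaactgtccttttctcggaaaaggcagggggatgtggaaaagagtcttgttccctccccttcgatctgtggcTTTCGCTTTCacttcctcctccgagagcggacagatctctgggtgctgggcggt
PSMB9 promoter, chr6:32853942-32854241 (plus strand): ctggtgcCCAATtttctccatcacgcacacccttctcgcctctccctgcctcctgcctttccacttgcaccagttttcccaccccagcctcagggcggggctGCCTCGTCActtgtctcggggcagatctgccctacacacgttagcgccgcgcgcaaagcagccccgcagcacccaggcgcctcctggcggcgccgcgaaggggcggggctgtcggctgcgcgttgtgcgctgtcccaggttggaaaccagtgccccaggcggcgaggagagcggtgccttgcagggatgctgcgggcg
PSMB10 promoter, chr16:67936801-67937100 (minus strand): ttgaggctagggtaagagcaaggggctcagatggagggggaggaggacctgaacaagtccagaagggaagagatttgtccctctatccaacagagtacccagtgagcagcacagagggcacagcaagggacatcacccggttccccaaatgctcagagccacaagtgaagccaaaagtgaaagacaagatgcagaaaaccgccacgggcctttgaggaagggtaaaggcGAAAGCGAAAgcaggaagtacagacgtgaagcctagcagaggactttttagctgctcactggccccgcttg
PSME1 promoter, chr14:24135944-24136243 (plus strand): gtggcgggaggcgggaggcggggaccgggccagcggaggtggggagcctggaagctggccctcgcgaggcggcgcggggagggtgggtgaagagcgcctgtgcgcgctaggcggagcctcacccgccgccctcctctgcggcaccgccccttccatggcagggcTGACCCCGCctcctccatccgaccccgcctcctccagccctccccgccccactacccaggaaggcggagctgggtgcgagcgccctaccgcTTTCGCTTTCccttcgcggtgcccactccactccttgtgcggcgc
PSME2 promoter, chr14:24146561-24146860 (minus strand): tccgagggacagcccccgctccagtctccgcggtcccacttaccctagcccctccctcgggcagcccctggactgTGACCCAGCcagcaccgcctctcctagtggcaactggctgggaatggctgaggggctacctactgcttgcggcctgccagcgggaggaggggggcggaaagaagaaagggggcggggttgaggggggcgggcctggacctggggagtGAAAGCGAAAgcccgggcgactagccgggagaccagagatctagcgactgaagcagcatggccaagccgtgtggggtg
The IRF pair lay in windows of 7 proteasome genes (PSMA4, PSMB10, PSMB4, PSMB8, PSME1, PSME2 and PSMG4), which is 13.7% of their windows, beside 3.57% of 35116 RefSeq windows. The PSMB9 window holds no match to the IRF pair. Another PSMB8 window, chr6:32844630-32844929, which is not printed, holds none either. The E-box CACGTG, which MYC binds together with MAX, lay in 5.88% of the proteasome windows (PSMB3, PSMD9 and PSME3) and in 7.26% of all windows. The ETS core CCGGAAG lay in 29.4% of the proteasome windows and 10.3% of all windows, TGACNNNGC, the core of the antioxidant response element, in 29.4% and 13.3%, and CCAAT in 39.2% and 34.6%. A match describes letters in a window, not a bound site.

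MYC, counted as the sum of the endogenous and the ectopic gene in 1 row, was measured first. In CPM (counts-per-million, on TMM-scaled library sizes) it stood in DOX libraries at 242 and 232 on day 12, 164 and 183 on day 14, 133 and 84.4 on day 16, 66.2 and 56.1 on day 18, and 49.6 and 28.9 on day 20. In UT libraries it stood at 157 and 142 on day 10, 126 and 121 on day 12, 88.7 and 58.0 on day 14, 59.8 and 46.8 on day 16, 45.0 and 33.2 on day 18, and 34.6 and 28.7 on day 20. Both DOX libraries lay above both UT libraries on days 12 to 18, and the arms overlapped on day 20.

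Libraries held 26704045 to 53508590 counts in the DOX arm and 24730517 to 42648426 in the UT arm. The share of counts from the mitochondrial genome on days 12 to 20 was 9.02% to 58.8% in DOX and 9.95% to 72.9% in UT, and on day 20 it was 55.3% and 58.8% in DOX against 72.5% and 72.9% in UT. Markers of other cells moved with the arms too, in a comparison over days 12 to 20 that called 29.8% of all genes higher and 23% lower. In the averaged comparison all 8 neutrophil markers (sums of 741 to 2089 CPM in DOX, 1227 to 3664 CPM in UT), 7 of 8 mast cell, basophil and eosinophil markers (250 to 11561 CPM in DOX, 775 to 33113 CPM in UT) and 6 of 8 monocyte markers (86.5 to 186 CPM in DOX, 103 to 276 CPM in UT) were lower in DOX. Higher in DOX were 7 of 8 erythroid markers (318 to 1451 CPM in DOX, 103 to 1748 CPM in UT), all 6 megakaryocyte markers (510 to 2102 CPM in DOX, 224 to 3424 CPM in UT) and all 5 endothelial markers (33.1 to 346 CPM in DOX, 5.99 to 561 CPM in UT). On day 12, however, these sums lay lower in DOX. Erythroid sums were then 1291 to 1451 CPM in DOX and 1659 to 1748 CPM in UT. Megakaryocyte sums were 2076 to 2102 CPM in DOX and 3357 to 3424 CPM in UT. Endothelial sums were 328 to 346 CPM in DOX and 536 to 561 CPM in UT. On day 14 erythroid and megakaryocyte sums were still lower in DOX, and endothelial sums overlapped. From day 16 on, both DOX libraries lay above both UT libraries for each sum. Fibroblast markers had 0 of 5 higher and 1 lower, lymphoid markers 0 of 6 higher and 1 lower with MS4A1 at 0 in all libraries, and stem cell markers 2 of 4 higher, with POU5F1 and NANOG too low to test. All 8 HPC markers were detected, with 1 higher and 4 lower (821 to 1100 CPM in DOX, 967 to 1447 CPM in UT). UT day 16 replicate 2 stood apart, with a fibroblast marker sum of 513 CPM where UT day 16 replicate 1 had 16.4. The part of these shifts in the proteasome results was not tested, and in bulk RNA fewer cells of a type and less RNA per cell cannot be told apart.

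Of the 48 proteasome genes, 46 had enough counts to be tested. The others are known for restricted expression: PSMA8, an alpha subunit of the testis, had 22 counts over all libraries, and PSMB11, the thymus catalytic subunit, had 7. As a level per length (CPM per kilobase of transcript, averaged over the 22 libraries), PSMA4 at 220 and PSMD7 at 213 were the highest and PSMB9 at 1.44 was the lowest of those tested. The length was the median over all annotated protein-coding transcripts of a gene, short ones included. Levels, ranks and shares per length depend on that choice. The constitutive catalytic genes PSMB7, PSMB5 and PSMB6 stood at 62.9, 54.3 and 40.6 CPM per kilobase, and the immunoproteasome genes PSMB10, PSMB8 and PSMB9 at 24.6, 12.1 and 1.44.

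Averaged over days 12 to 20, most of the proteasome genes that passed the test were higher in DOX, and 8 were lower. Of the 46 tested, 24 were higher (52.2%) and 8 lower (17.4%) at an adjusted p under 0.05 in edgeR's quasi-likelihood test, where the same test called 52.9% of all 20115 genes, 29.8% higher and 23% lower. The median log2 fold change was 0.17 for the proteasome genes and 0.08 for all genes. Scaling by library size alone turned the split into 43 higher and 0 lower, with the median of all genes at 0.60, so directions here are relative to the other genes; PSMA4, PSMA7, PSMB10, PSMC3, PSMC5 and PSME2, called lower in the main scaling, then turned above 0. Without UT day 16 replicate 2, 24 were higher and 6 lower, and with days 12 and 14 alone 7 were higher and 2 lower.

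**Figure D1:**
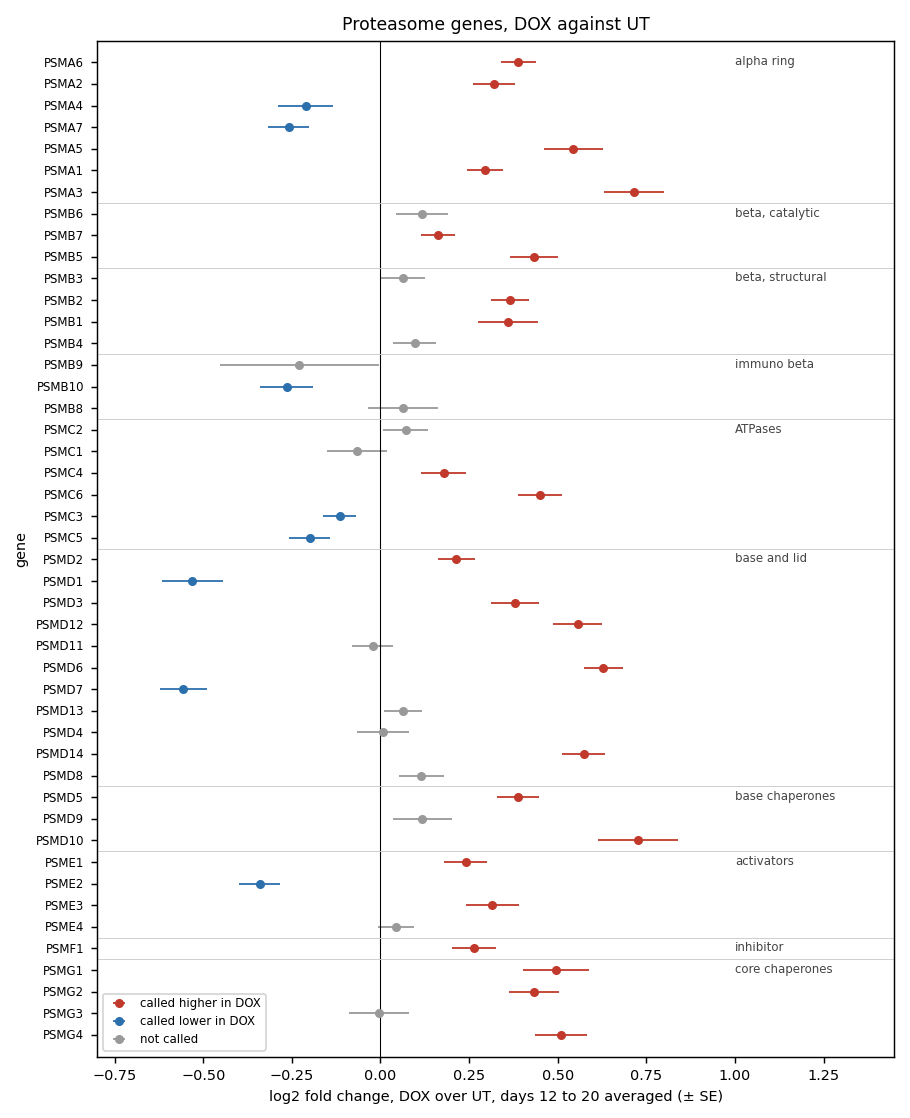
Log2 fold change of each tested proteasome gene, DOX over UT averaged over days 12 to 20 (x axis), with its standard error as a bar; genes run down the page by role, from 10 libraries per arm. Red points (24) passed the test as higher, blue points (8) as lower and grey points (14) did not pass, and PSMD7 at -0.56 and PSMD1 at -0.53 lie farthest to the left.

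In the alpha ring, which gates entry to the core, 5 of 7 genes were higher and 2 lower. PSMA3 (alpha7) had 52.5 and 42.5 CPM in DOX libraries and 23.2 and 13.9 CPM in UT libraries on day 20. Both DOX libraries lay above both UT libraries on 4 of 5 days, and the averaged log2 fold change was 0.71 ± 0.08 (SE, here and below; adjusted p = 1.1e-06). PSMA5 (alpha5) stood at 0.54 ± 0.08. PSMA7 (alpha4) was lower at -0.26 ± 0.06 (adjusted p = 0.00098), with DOX below UT on 4 of 5 days. PSMA4 (alpha3) was lower at -0.21 ± 0.08 (adjusted p = 0.027). That call was lost, at adjusted p between 0.051 and 0.11, when 1 library was left out: either day 12 library of either arm, replicate 2 of UT day 14, 16, 18 or 20, DOX day 14 replicate 2, or replicate 1 of DOX day 16, 18 or 20.

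In the beta ring the constitutive genes were higher or did not pass. PSMB5, which carries the chymotrypsin-like site, stood at 0.43 ± 0.07 (adjusted p = 2.5e-05). PSMB7, the trypsin-like site, stood at 0.16 ± 0.05 (adjusted p = 0.009), a call lost with DESeq2 size factors (0.12, adjusted p = 0.05). PSMB6, the caspase-like site, stood at 0.12 ± 0.07 and did not pass (adjusted p = 0.2). Of the 4 structural genes, PSMB2 (0.36 ± 0.05) and PSMB1 (0.36 ± 0.08) were higher, and PSMB4 (0.10 ± 0.06) and PSMB3 (0.06 ± 0.06) did not pass.

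None of the 3 immunoproteasome genes was called higher in the averaged comparison. PSMB10 was lower at -0.26 ± 0.07 (adjusted p = 0.0058), PSMB9 stood at -0.23 ± 0.22 (adjusted p = 0.42) and PSMB8 at 0.06 ± 0.10 (adjusted p = 0.63). PSMB9 rests on 9 to 95 counts per library and had the widest standard error of the 46. PSMB8 and PSMB9 overlap on opposite strands of chromosome 6 over 568 bases and PSMB9 overlaps TAP1, and since the strand setting of the counting is not given in the sources used here, reads from these genes cannot be told apart there. PSMB10 overlaps the protein-coding gene AC040162.1 on the same strand over 1516 bases, where a strand setting would not separate them.

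The cap genes split as well. Of 6 ATPase genes, PSMC6 (RPT4, 0.45 ± 0.06) and PSMC4 (RPT3, 0.18 ± 0.06, a call lost with DESeq2 size factors at adjusted p = 0.09) were higher, and PSMC5 (RPT6, -0.20 ± 0.06) and PSMC3 (RPT5, -0.12 ± 0.05) lower. The call of PSMC3 (adjusted p = 0.047) was lost without any 1 library of days 12 to 20 other than DOX day 20 replicate 1, at adjusted p between 0.057 and 0.15. Of the 11 other base and lid genes, 5 were higher and 2 lower. Among those higher were PSMD6 (RPN7, 0.63 ± 0.06), PSMD14 (RPN11, the enzyme of the lid that removes ubiquitin, 0.57 ± 0.06) and PSMD12 (RPN5, 0.56 ± 0.07). The lower ones were PSMD7 (RPN8, the partner of PSMD14 in the lid) at -0.56 ± 0.07 (adjusted p = 1.2e-06) and PSMD1 (RPN2, a scaffold of the base) at -0.53 ± 0.09 (adjusted p = 3.9e-05). Both calls were lost on library size alone, with PSMD7 at -0.021 (adjusted p = 0.86) and PSMD1 at -0.0018 (adjusted p = 1).

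Of the 7 assembly chaperones, 5 were higher and none lower. PSMD10 (gankyrin), which helps to assemble the base, had 17.6 and 16.7 CPM in DOX libraries and 8.69 and 9.02 CPM in UT libraries on day 16. Both DOX libraries lay above both UT libraries on all 5 days, and at 0.73 ± 0.11 (adjusted p = 2.5e-05) it had the largest averaged rise of the 46 genes. Of the other base chaperones, PSMD5 was higher (0.39 ± 0.06) and PSMD9 did not pass (0.12 ± 0.08). Of the chaperones that build the alpha ring, PSMG4 (0.51 ± 0.07), PSMG1 (0.50 ± 0.09) and PSMG2 (0.43 ± 0.07) were higher, and PSMG3 stood at -0.00 ± 0.09. PSMF1, the gene of the inhibitor PI31, was higher at 0.26 ± 0.06 (adjusted p = 0.0015).

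The activator genes differed in direction. PSME1 and PSME2 encode the alternating subunits of the interferon-inducible PA28 cap, and both have an IRF pair in the promoters shown above. On day 16 PSME1 had 69.9 and 79.1 CPM in DOX libraries and 46.3 and 49.3 CPM in UT libraries. On that day PSME2 had 66.7 and 77.9 CPM in DOX libraries and 104 and 110 CPM in UT libraries. The arms did not overlap for either gene and lay in opposite order, and over the days PSME1 was higher at 0.24 ± 0.06 (adjusted p = 0.0022) and PSME2 lower at -0.34 ± 0.06 (adjusted p = 7.1e-05). PSME3, the nuclear PA28 gamma cap, was higher at 0.32 ± 0.07. PSME4, the PA200 cap, did not pass over the days (0.04 ± 0.05), and was higher on day 14 (0.68 ± 0.11, adjusted p = 0.00021) and lower on day 18 (-0.34 ± 0.11, adjusted p = 0.027). The day 18 call was lost without UT day 18 replicate 2 (-0.18, adjusted p = 0.31) or DOX day 18 replicate 2 (-0.23, adjusted p = 0.24), and turned above 0 on library size alone.

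By day, few proteasome genes differed at first and most differed on day 16. On day 12 the test called 1, PSMG4, as higher (0.62 ± 0.16, adjusted p = 0.043), where 3.11% of all genes were called, 0.845% higher and 2.26% lower, and the call was lost without any 1 of the 4 day 12 libraries. On day 14 it called 8 higher and 8 lower, where 27% of all genes were called, 15.3% higher and 11.7% lower. That count fell to 7 without UT day 14 replicate 2, to 8 without DOX day 14 replicate 1 and to 5 without DOX day 14 replicate 2. On library size alone day 14 had 6 higher and 4 lower.

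On day 16 the test called 25 higher (54.3%) and 4 lower, where 39.9% of all genes were called, 21.2% higher and 18.7% lower, and the median log2 fold change was 0.41 for the proteasome genes and 0.00 for all genes. PSMA5 had 59.1 and 62 CPM in DOX libraries and 22.2 and 18.5 CPM in UT libraries (1.58 ± 0.19, adjusted p = 3.2e-06). PSMD6 had 56.3 and 64.3 CPM in DOX libraries and 25.8 and 25.2 CPM in UT libraries (1.24 ± 0.12, adjusted p = 5e-07). On day 14 the UT libraries had still held 53.9 and 45.9 CPM of PSMA5 and 46.7 and 53.7 CPM of PSMD6. Without UT day 16 replicate 2, which carried the fibroblast markers, 18 were higher and 3 lower on day 16, and on library size alone 42 were higher and 0 lower, with the median of all genes at 0.93.

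On day 18 the test called 16 higher and 7 lower, where 35.8% of all genes were called, 19.8% higher and 16% lower, and on day 20 it called 12 higher and 1, PSMD7, lower, where 27.8% were called, 15.9% higher and 11.9% lower. The day 20 count fell to 8 without UT day 20 replicate 2 or without DOX day 20 replicate 1. On library size alone 43 were higher on day 18 and 42 on day 20, with 0 lower and medians of all genes at 0.98 and 0.95. Chaperones of the core were among the day 20 calls. PSMG4 had 31.2 and 27 CPM in DOX libraries and 11.7 and 12.4 CPM in UT libraries (1.27 ± 0.17, adjusted p = 3.1e-05). PSMG1 had 57.1 and 63.5 CPM in DOX libraries and 30.9 and 27.5 CPM in UT libraries (1.05 ± 0.22, adjusted p = 0.0016). PSMG2 had 56.4 and 38.1 CPM in DOX libraries and 24 and 26.3 CPM in UT libraries (0.91 ± 0.16, adjusted p = 0.00046). For these 3 genes both DOX libraries lay above both UT libraries on day 20.

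**Figure D2:**
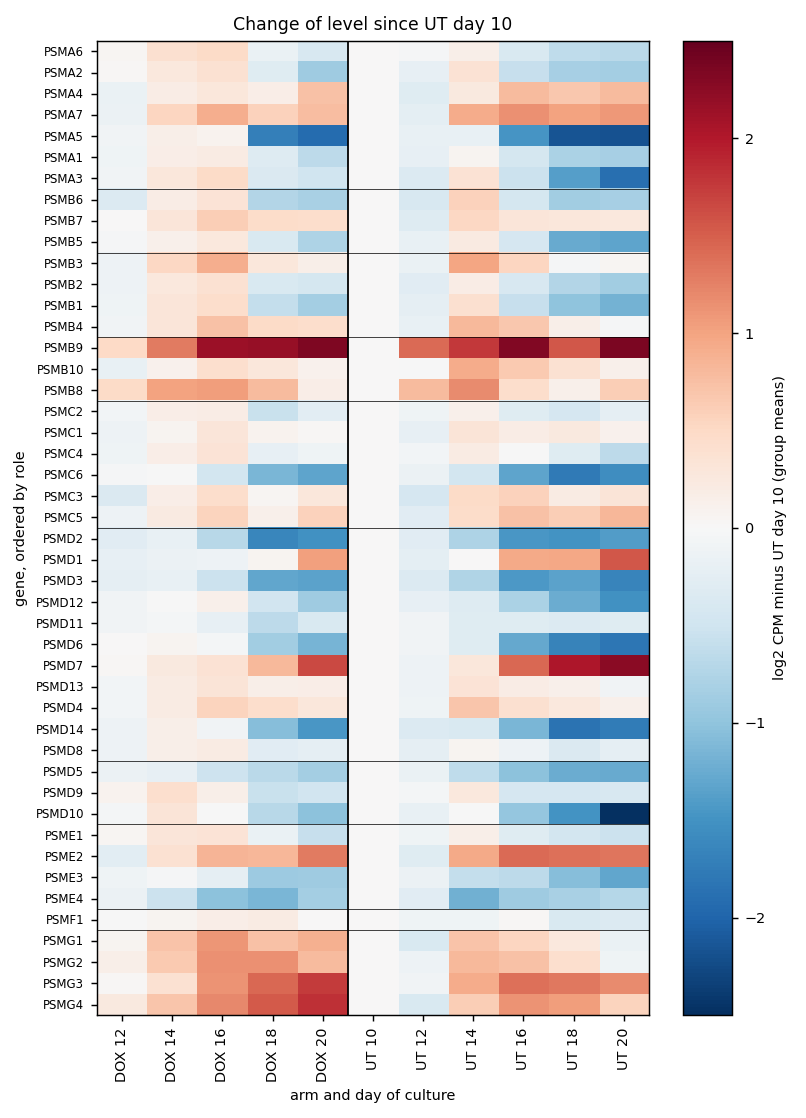
Mean log2 CPM of each tested proteasome gene (rows, by role) in each combination of arm and day (columns, 2 libraries each) minus its mean in UT day 10. Red is above and blue below that start, and late UT columns are red for PSMD7, PSMD1 and PSME2 and blue for PSMD10, PSMA5 and PSMD14.

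Through culture without doxycycline the proteasome genes moved in both directions. From UT day 10 to UT day 20, 12 of 46 rose and 22 fell, where 62.3% of all genes were called, 28.1% higher and 34.2% lower, and the median log2 fold change was -0.31 for the proteasome genes and -0.24 for all genes. The largest rises were those of PSMB9 (2.59 ± 0.56), PSMD7 (2.26 ± 0.16), PSMD1 (1.56 ± 0.20), PSME2 (1.35 ± 0.13), PSMG3 (1.23 ± 0.20) and PSMA7 (1.10 ± 0.13). The largest falls were those of PSMD10 (-2.47 ± 0.28), PSMA5 (-2.14 ± 0.20), PSMA3 (-1.86 ± 0.20), PSMD6 (-1.79 ± 0.13) and PSMD14 (-1.74 ± 0.14). The mitochondrial share was 72.5% and 72.9% on UT day 20 and 9.34% and 8.51% on UT day 10. From UT day 12 to UT day 20, 10 rose and 21 fell, where 60.5% of all genes were called, 27.6% higher and 32.9% lower. On library size alone 0 rose and 44 fell from day 10 to day 20, with the median of all genes at -2.41. On that scale PSMB9 stood at 0.43 and PSMD7 at 0.08, neither called, and PSMD1, PSME2, PSMG3 and PSMA7 turned to -0.62, -0.84, -0.93 and -1.09, all above that median.

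PSMD7 had 98.7 and 94.2 CPM on day 12, 117 and 106 on day 14, 114 and 128 on day 16, 147 and 187 on day 18 and 308 and 286 on day 20 in DOX libraries. In UT libraries it had 88.7 and 99.8 CPM on day 10, 87.2 and 85.4 on day 12, 107 and 123 on day 14, 222 and 292 on day 16, 363 and 401 on day 18 and 413 and 491 on day 20. DOX lay above UT on day 12, the arms overlapped on day 14, and from day 16 on both DOX libraries lay below both UT libraries. The log2 fold change was -1.09 ± 0.15 on day 16, -1.19 ± 0.15 on day 18 and -0.61 ± 0.15 on day 20 (adjusted p = 1.6e-05, 7.9e-06 and 0.0053). The day 20 call was lost without UT day 20 replicate 2 (-0.47, adjusted p = 0.065). On library size alone the calls of all 3 days were lost, with PSMD7 on day 16 at -0.16, adjusted p = 0.43, on day 18 at -0.29, adjusted p = 0.15 and on day 20 at 0.32, adjusted p = 0.11. PSMD1 had 111 and 132 CPM in DOX libraries and 232 and 284 CPM in UT libraries on day 16 (-1.08 ± 0.19, adjusted p = 0.00021), a call also lost on library size alone (-0.16, adjusted p = 0.52). PSMD10 had 10.4 and 6.88 CPM in DOX libraries and 1.78 and 4.36 CPM in UT libraries on day 20, where UT day 10 had 17.6 and 17.1 CPM.

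**Figure D3:**
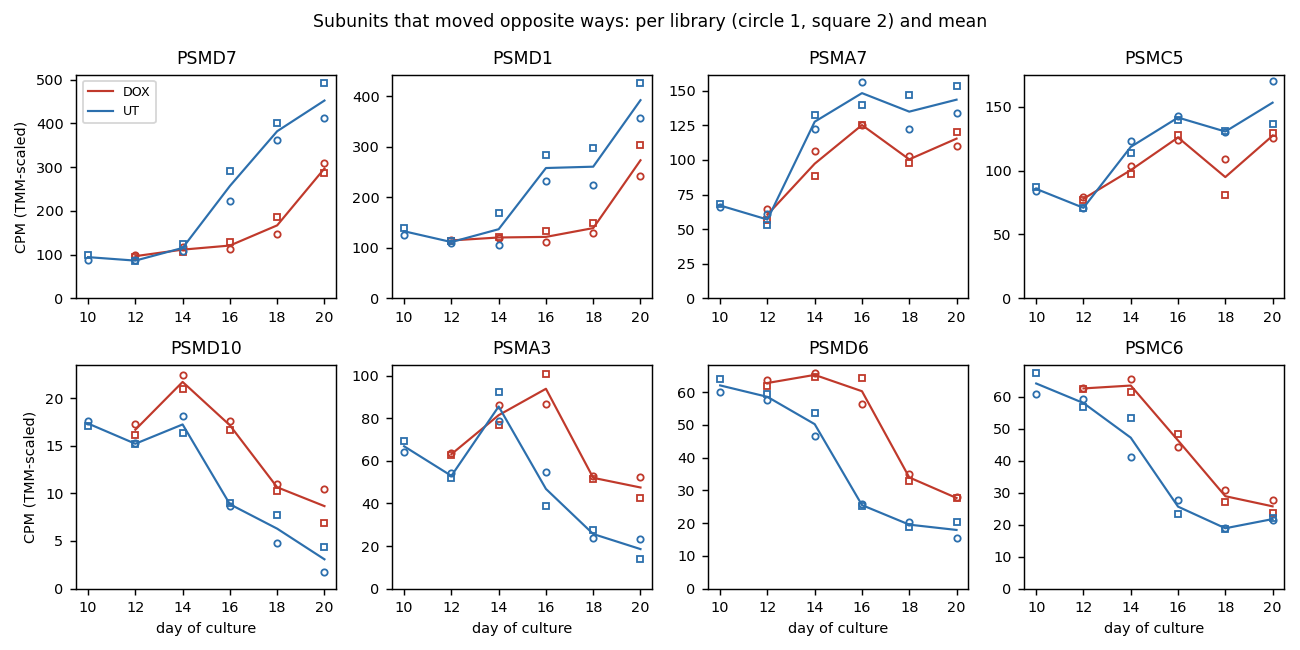
Level in CPM (y axis) by day of culture (x axis) of 8 proteasome genes in DOX (red) and UT (blue) libraries, with each library as a symbol and the mean of 2 as a line. In the upper row (PSMD7, PSMD1, PSMA7, PSMC5) DOX lies below UT on days 16 to 20, and in the lower row (PSMD10, PSMA3, PSMD6, PSMC6) DOX lies above UT on those days.

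From DOX day 12 to DOX day 20, 14 rose and 20 fell, where 56.4% of all genes were called, 26.7% higher and 29.7% lower; on library size alone 3 rose and 37 fell, with the median of all genes at -1.26. PSMD7 stood at 1.62 ± 0.15, PSME2 at 1.57 ± 0.13, PSMD1 at 1.25 ± 0.19, PSMD6 at -1.18 ± 0.12 and PSMA5 at -1.83 ± 0.19. The 4 chaperones of the core rose in this course: PSMG3 by 1.72 ± 0.19, PSMG4 by 1.60 ± 0.16, PSMG1 by 0.82 ± 0.21 and PSMG2 by 0.67 ± 0.16. The PSMG2 call was lost without DOX day 20 replicate 1 (0.33, adjusted p = 0.091), and on library size alone PSMG1 and PSMG2 turned to -0.38 and -0.50. On that scale the calls of PSMG4 (0.42, adjusted p = 0.06) and PSMD1 (0.05, adjusted p = 0.83) were lost as well. In the UT course PSMG3 and PSMG4 rose, and PSMG1 (-0.16 ± 0.22) and PSMG2 (-0.10 ± 0.16) did not pass. The changes of the DOX course and of the UT course, which share no library, correlated across the 46 genes at Pearson's r = 0.914 (Spearman's rho = 0.924), and across 14689 protein-coding genes at 0.743 (rho = 0.808). This is a description, since all genes share the libraries and their depth.

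**Figure D4:**
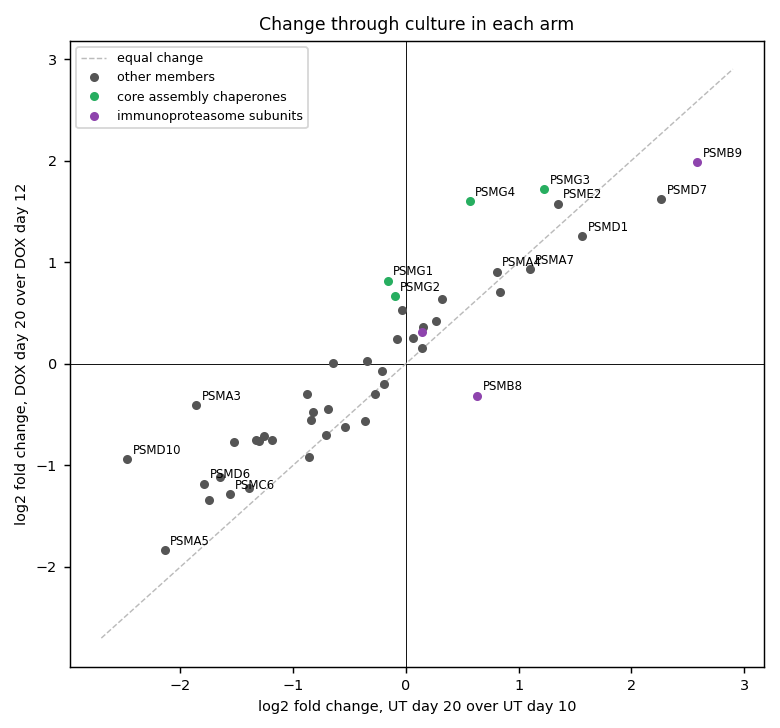
Log2 fold change of DOX day 20 over DOX day 12 (y axis) against that of UT day 20 over UT day 10 (x axis) for the 46 tested genes, with the line of equal change dashed. The chaperones of the core (green) lie above the line, PSMB9 (purple) and PSMD7 lie below it at the upper right, and PSMB8 (purple) lies at -0.32 in DOX and 0.63 in UT. The courses start on unlike days, so the line does not compare equal times. From UT day 12 to UT day 20 the 3 immunoproteasome genes ranged from -0.16 to 1.03, and none was called.

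The difference between the arms changed from day 12 to day 20 for 3 of the 46 genes, where 8.96% of all genes were called, 5.62% higher and 3.34% lower. It moved by 1.34 ± 0.37 for PSMD10 (adjusted p = 0.031), by 1.11 ± 0.27 for PSMA3 (adjusted p = 0.015) and by -0.77 ± 0.21 for PSMD7 (adjusted p = 0.028). On day 20 itself PSMD10 stood at 1.48 ± 0.29 and PSMA3 at 1.36 ± 0.20. None of the 3 changes passed without UT day 12 replicate 1, without either DOX day 12 library or without DOX day 20 replicate 1, with adjusted p between 0.051 and 0.16. Without UT day 12 replicate 2 only PSMA3 passed, without UT day 20 replicate 1 PSMD10 did not pass, without UT day 20 replicate 2 PSMA3 and PSMD7 did not pass, and without DOX day 20 replicate 2 PSMD7 did not pass. On library size alone 42 changed, all upwards, with the median of all genes at 1.03, and PSMD7 turned to 0.22.

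The spread among the subunits widened from day 12 to day 20, as it did over all genes. Over the 31 genes of the constitutive core and the cap, the standard deviation among genes of the log2 change since UT day 10 was 0.11 and 0.10 in DOX libraries and 0.09 and 0.12 in UT libraries on day 12. Over all genes it was then 0.56 and 0.56 in DOX libraries and 0.76 and 0.69 in UT libraries. On day 20 that of the 31 genes was 0.81 and 0.87 in DOX libraries and 1.05 and 1.13 in UT libraries, where over all genes it was 1.87 and 1.92 in DOX libraries and 2.36 and 2.30 in UT libraries. The summed level of the 31 genes on TMM-scaled library sizes ranged from 2030 to 2912 CPM in DOX and from 2012 to 2807 CPM in UT. As a share of all counts, mitochondrial ones included, it ranged from 0.141% to 0.430% in DOX and from 0.0854% to 0.444% in UT.

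DOX day 20 and UT day 16 had similar mitochondrial shares, 55.3% and 58.8% in DOX day 20 and 55.9% and 53.5% in UT day 16. PSMD7 had 308 and 286 CPM in DOX day 20 and 222 and 292 CPM in UT day 16. PSMA3 had 52.5 and 42.5 CPM in DOX day 20 and 55 and 38.7 CPM in UT day 16. PSMG4 had 31.2 and 27 CPM in DOX day 20 and 20.6 and 15.4 CPM in UT day 16. The libraries overlapped for PSMD7 and PSMA3 and did not overlap for PSMG4. These genes are examples, and no count over all proteasome genes was made. Among the others, PSMA5, PSMA7 and PSMC5 did not overlap either, with DOX day 20 below UT day 16. These differences were not tested.

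The RNA balance of the catalytic genes was scored in each library as the mean log2 CPM of PSMB8, PSMB9 and PSMB10 minus that of PSMB5, PSMB6 and PSMB7. This RNA score does not measure which subunits the assembled proteasomes hold. In DOX it averaged -3.27 ± 0.14, -3.06 ± 0.02, -2.86 ± 0.16, -2.34 ± 0.27 and -2.39 ± 0.20 on days 12, 14, 16, 18 and 20 (SD, n = 2 each). In UT it averaged -3.65 ± 0.15 on day 10 and -2.61 ± 0.09, -2.79 ± 0.30, -2.33 ± 0.21, -2.35 ± 0.01 and -1.99 ± 0.14 on days 12, 14, 16, 18 and 20. The difference of DOX from UT exceeded the replicate SDs on days 12, 16 and 20, lay within the UT SD on day 14 and was near 0 on day 18. On day 18 it was 0.48 for PSMB9 minus PSMB6, -0.22 for PSMB8 minus PSMB5 and -0.26 for PSMB10 minus PSMB7. With counts summed before the log, where the low PSMB9 weighs little, the difference was -0.44, -0.33, -0.50, -0.19 and -0.41 on days 12, 14, 16, 18 and 20. Averaged over the 5 days the score was -2.78 in DOX and -2.41 in UT, a difference of -0.37, on which no test was made.

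**Figure D5:**
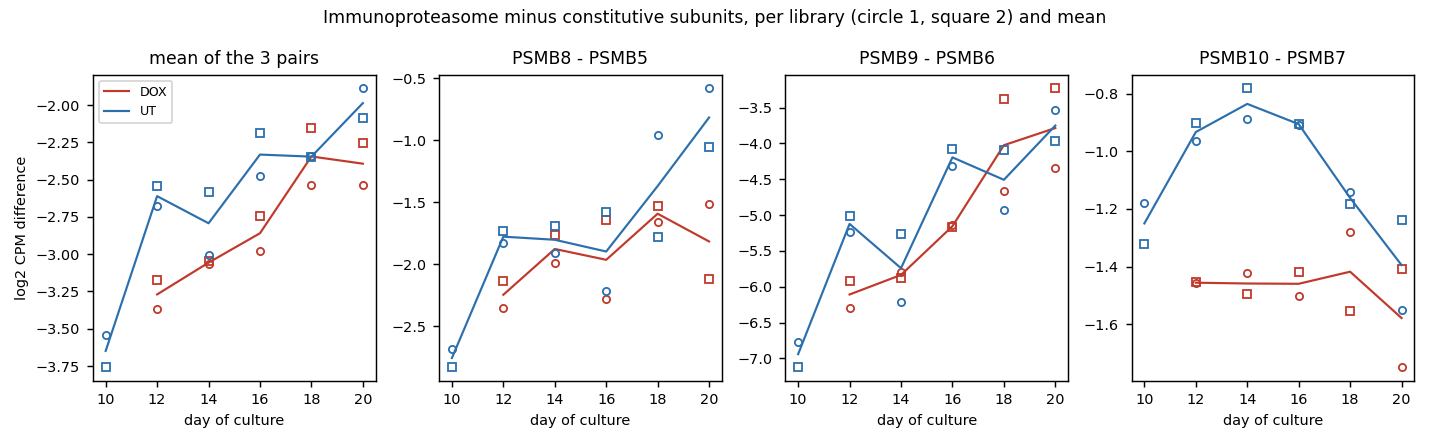
Log2 CPM difference between immunoproteasome and constitutive catalytic genes (y axis) by day of culture (x axis), for the mean of the 3 pairs and for each pair, in DOX (red) and UT (blue) libraries; symbols are libraries and lines are means of 2. PSMB10 minus PSMB7 lies lower in DOX on days 12 to 18, PSMB8 minus PSMB5 on days 12 and 20, and PSMB9 minus PSMB6 is higher on day 20 than at the start in both arms.

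Each pair had its own course. PSMB10 minus PSMB7 stood at -1.46, -1.46 and -1.46 in DOX on days 12, 14 and 16, and at -0.93, -0.83 and -0.91 in UT. On day 14 PSMB10 had 20.8 and 17.2 CPM in DOX libraries and 32.5 and 34.6 CPM in UT libraries. The arms lay well apart on that day, the only day on which PSMB10 was called (-0.82 ± 0.16, adjusted p = 0.001).

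PSMB8 minus PSMB5 stood at -1.82 in DOX and -0.82 in UT on day 20. There PSMB8 had 10.6 and 8.66 CPM in DOX libraries and 15.6 and 11 CPM in UT libraries, which did not pass (-0.46 ± 0.23, adjusted p = 0.15). PSMB5 had 30.4 and 37.8 CPM in DOX libraries and 23.4 and 22.9 CPM in UT libraries, which passed (0.56 ± 0.16, adjusted p = 0.014) but not without UT day 20 replicate 2 (0.55, adjusted p = 0.067) or DOX day 20 replicate 2 (0.40, adjusted p = 0.11). PSMB8 was called higher on day 16 (0.63 ± 0.22, adjusted p = 0.029) and day 18 (0.64 ± 0.23, adjusted p = 0.037). The day 16 call was lost without either UT library or without DOX replicate 2 of that day, with adjusted p between 0.055 and 0.35. The day 18 call was lost without UT replicate 2 or without either DOX library of that day, with adjusted p between 0.094 and 0.33. PSMB9 stood at 1.99 ± 0.52 in the DOX course and 2.59 ± 0.56 in the UT course, while PSMB6 stood at -0.47 ± 0.16 in the DOX course and -0.82 ± 0.17 in the UT course. The UT course starts on day 10 and the DOX course on day 12. From UT day 12 to UT day 20 none of the 3 immunoproteasome genes was called (-0.16 to 1.03). With library size alone the PSMB9 calls of the DOX course (0.78, adjusted p = 0.19) and of the UT course (0.43, adjusted p = 0.48) were lost. In the DOX course it was also lost without DOX day 20 replicate 2 (1.46, adjusted p = 0.051), and the PSMB6 call without either DOX day 12 library or DOX day 20 replicate 2, with adjusted p between 0.052 and 0.13.

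As a share of the 6 catalytic genes per length, the immunoproteasome genes averaged 15.9%, 16.8%, 17.1%, 21.1% and 19.5% in DOX on days 12, 14, 16, 18 and 20. In UT they averaged 14.7% on day 10 and 20.4%, 20.7%, 23%, 23.7% and 24% on days 12, 14, 16, 18 and 20. On each day from 12 to 20 both DOX libraries lay below both UT libraries.

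Genes that work with the proteasome were taken from hand-written lists. Of 19 cofactors and shuttle factors, 12 were higher and 3 lower in DOX over the days (median log2 fold change 0.24). In this comparison, for each of the lists, 29.8% of all genes were higher and 23% lower, with a median of 0.08. UBE3C, a ubiquitin ligase of the proteasome, stood at 0.73 ± 0.07, TXNL1, a thioredoxin-like protein of the cap, at 0.64 ± 0.06 and UCHL5, a ubiquitin-removing enzyme of the cap, at 0.61 ± 0.07. RAD23B, a shuttle for tagged proteins and the most abundant of the list per length, stood at 0.43 ± 0.06, POMP, the maturation factor of the core, at 0.27 ± 0.06, and ZFAND2A, an arsenite-induced proteasome binder, at -0.69 ± 0.10. Without division by length ECPAS had the highest mean of that list, 133 CPM beside 109 CPM for RAD23B. Of 8 genes around NRF1, a factor that raises proteasome genes when proteasome activity is short, 7 were tested, with 1 higher and 2 lower (median 0.02), beside the same 29.8% and 23% of all genes. NFE2L1, which encodes NRF1, did not pass (0.05 ± 0.05), DDI2, the protease that activates NRF1, was higher (0.26 ± 0.06), and the small MAF genes MAFF (-0.40 ± 0.13) and MAFG (-0.28 ± 0.06) were lower.

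Of 9 genes of ubiquitin supply and the VCP unfoldase, 5 were higher and 1 lower (median 0.12), where 29.8% of all genes were higher and 23% lower. The ubiquitin genes UBB (0.47 ± 0.08) and RPS27A (0.26 ± 0.09, the most abundant of the list per length) were higher, and NPLOC4, a cofactor of VCP, was lower (-0.29 ± 0.07). Of 14 genes of MHC class I peptide loading, 2 were higher and 5 lower (median -0.08), beside the same 29.8% and 23% of all genes. The lower ones were ERAP2, a peptide trimmer (-1.27 ± 0.18), the tapasin gene TAPBP (-0.62 ± 0.06), its relative TAPBPL (-0.58 ± 0.15), and the chaperones CALR (-0.35 ± 0.05) and CANX (-0.17 ± 0.06). TAP1, the peptide transporter gene beside PSMB9, did not pass (-0.18 ± 0.12).

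Of 10 genes of interferon signalling, 3 were higher and 4 lower (median -0.09), where 29.8% of all genes were higher and 23% lower. IRF9, a factor of the interferon response, stood at -0.93 ± 0.07, IRF1, which binds interferon-inducible promoters, at -0.79 ± 0.07, IRF8 at -0.78 ± 0.11 and IRF2, the most abundant of the list per length, at 0.26 ± 0.09. Without division by length JAK1 had the highest mean of that list, 109 CPM beside 20.4 CPM for IRF2. On day 20 IRF1 had 9.11 and 10 CPM in DOX libraries and 30.2 and 30.9 CPM in UT libraries. On day 16 IRF9 had 14.6 and 12.5 CPM in DOX libraries and 40.7 and 35.5 CPM in UT libraries. The arms lay far apart for both genes. Of the interferon-inducible proteasome genes, PSMB10 and PSME2 were lower in the averaged comparison, PSME1 was higher, and PSMB8 and PSMB9 did not pass. PSMB9, with few counts and no IRF pair in its window, did not pass on any single day either. A link between these factors and the proteasome genes was not tested.

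Single values are limited by gene structure. On GENCODE 29, 29 of the 48 genes overlap another gene and 20 another protein-coding gene. Among them are PSMD1 with HTR2B and PSMA3 with ARMH4, and such counts are uncertain without a known strand setting. PSMB10, PSMA1, PSMA2, PSMA6 and PSMD9 overlap a protein-coding gene on their own strand, where a strand setting would not separate the genes. PSMD10 overlaps none. Across the 46 genes, the averaged log2 fold change and the GC content of the transcript correlated at Pearson's r = -0.389 (Spearman's rho = -0.425), and across the protein-coding genes tested at -0.127 (rho = -0.185). These are descriptions over genes that share the libraries.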

How the data were processed

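PolyA-selected RNA of all 22 libraries was sequenced by the authors. Reads were trimmed with Trim Galore 0.6.5 and processed with STAR and Salmon on hg38, per the submitters' processing notes; other versions, the annotation, the strand setting and the doxycycline start are not given in the sources used here. For each gene, expected counts were deposited by the authors; 88.3% of the values were whole, and all were rounded to whole numbers for the tests.

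Of 60240 genes, 23698 had 0 counts everywhere and 20115 passed edgeR's filterByExpr (minimum count 10). One fit over all 22 libraries with 1 coefficient per group used TMM scaling and edgeR 4.0.16 quasi-likelihood tests in R 4.3.3 (11 residual degrees of freedom), with Benjamini-Hochberg adjustment over all genes tested and a threshold of 0.05. CPM used TMM-scaled library sizes, and log2 CPM a prior count of 2. The averaged comparison alone was also run on simulated counts, with the outcome not reported here. That run covered neither the comparisons by day nor a difference of mitochondrial share between the arms. Alternatives included limma 3.58.1 and DESeq2 1.42.0. Positions come from GENCODE 29 and promoters from RefSeq GRCh38.p14. Total counts per library set the counting precision, which leaves PSMB9 the least precise.

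The genes and lists were chosen with earlier results of these data known. Named with values were the catalytic exchange pairs, activators, inhibitor and chaperones and, per role, the extremes, the most abundant gene and genes called against their group.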

Additional observations from a re-analysis of the deposited data

Results flagged for a closer look

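The difference between DOX and UT changed from day 12 to day 20 for 3 of the 46 tested proteasome genes in the interaction test of edgeR's quasi-likelihood fit: PSMD10 by 1.34 (adjusted p = 0.031), PSMA3 by 1.11 (adjusted p = 0.015) and PSMD7 by -0.77 (adjusted p = 0.028), in log2 units. The same test called 8.96% of all genes, 5.62% higher and 3.34% lower, so the proteasome genes did not stand out by their count. With 2 libraries per group, each of the 3 calls was lost when any of several single libraries was left out. The mitochondrial share was 55.3% and 58.8% in DOX and 72.5% and 72.9% in UT on day 20, and its part in these changes was not tested.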

How the results depend on the processing

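Counts under alternative settings, here and above, are given without the share of all genes called and describe the proteasome genes alone. Counts of called proteasome genes moved by over 1.5 times in these cases. Scaling by library size alone gave 0 (day 12), 10 (day 14), 43 (day 18), 42 (day 20) and 42 for the change of the difference from day 12 to day 20. Day 12 had 1 call, and had 0 with DESeq2 size factors or no filter, 2 with limma-voom, 2 with the DESeq2 Wald test and 8 in a fit of the compared groups alone. That fit gave 12 on day 18, 4 on day 20 and 1 for the change of the difference. Days 12 and 14 alone gave 9 in the averaged comparison. With 1 library left out, calls ranged from 30 to 33 averaged over days, were 0 on day 12, and ranged from 5 to 13 (day 14), 21 to 26 (day 16), 18 to 23 (day 18) and 8 to 14 (day 20), 31 to 33 in the DOX course, 29 to 34 in the UT course (30 to 34 from day 12) and 0 to 4 for the change of the difference. Library size alone, by construction, lets the mitochondrial share act on all other genes. It reversed the averaged values of PSMA4 (0.32), PSMC5 (0.33), PSME2 (0.19), PSMA7 (0.28), PSMG3 (0.52), PSMC3 (0.42), PSMB10 (0.27) and PSMB9 (0.29), PSME4 on day 18 (0.58), PSMD7 (0.32) and PSMB8 (0.45) on day 20, PSME2 (-0.84), PSMA7 (-1.09), PSMG3 (-0.93), PSMD1 (-0.62) and PSMB8 (-1.53) in the UT course, PSMG2 (-0.50) and PSMG1 (-0.38) in the DOX course, and PSMD7 in the change of the difference (0.22). Days 12 and 14 alone reversed PSMC4 (-0.043), PSMA4 (0.044), PSMD7 (0.056), PSMB6 (-0.16), PSMB4 (-0.20), PSMB8 (-0.24) and PSMB3 (-0.22). Values near 0 changed sign: averaged PSME4 with DESeq2 size factors (-0.00159), a 1 CPM filter (-0.012) and the Wald test (-0.00221); averaged PSMG3 with limma-voom (0.0033), without mitochondrial genes (0.0072), with no filter (0.023) and with 1 library left out (-0.059 to 0.086); and, in the UT course, PSMG2 with DESeq2 size factors (0.012), the Wald test (0.012) and the 1 CPM filter (0.066), and PSMG1 with that filter (0.0038). Unless stated, the cause was not tested. Same-numbered replicates of the arms on the same day deviated together only weakly (correlations 0.03 to 0.10). That check does not cover replicates of different days, so it cannot tell whether the numbers pair libraries. With a replicate block the averaged comparison had 32 calls, day 16 had 32, day 18 had 27, day 20 had 17 and the change of the difference 3.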
